A study of Homo sapiens with 22 samples.

Results

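Broad constitutively open regions are stretches of at least 2000 bp in which an ATAC-seq peak was called in every library of the chromatin experiment. They were selected by merging the peak intervals of all 12 libraries wherever 1 bp or more overlapped, and by keeping merged regions with a peak in all 12 and the stated width. Of 230774 merged regions, 78272 held a peak in all 12 libraries, and 7043 of these were broad, which is 9.0% of them by number and 25.1% by length. The other 71229 are called narrower here. The cells were WM989, a human melanoma line, here a clone bottlenecked to a single cell, so the chromatin values describe 1 clone. No drug treatment is named for these libraries. They were sorted by flow cytometry on 2 surface receptors into cells high for EGFR (EGFR-high), for NGFR (NGFR-high) or for both (EGFR/NGFR-high) and marker-negative cells, with 3 libraries each. The last sort carries the label Mix, and the study's methods describe it as cells negative for both markers. The label alone could also mean an unsorted mixture, so marker-negative rests on the methods. Nothing in the labels says whether libraries of a sort came from separate cultures, so p-values measure the spread between libraries, which may be technical. RNA values come from the single-cell experiments labelled untreated, of WM989 and of WM983B, another melanoma line, also a bottlenecked clone.

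ATAC-seq inserts sequencing adapters into DNA that nucleosomes leave free, so that peaks mark promoters, enhancers and other accessible sites. Promoters with many CpG dinucleotides are accessible in most cell types, whereas enhancers are used in fewer, and AP-1, the dimer of FOS and JUN proteins, binds many enhancers of stimulated or dedifferentiated cells. In melanoma, MITF and SOX10 keep the melanocytic programme, and EGFR and NGFR are raised in rare cells primed to survive targeted therapy. The comparisons between sorts ask how chromatin differs between primed and drug-susceptible cells.

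Sequences of 300 bp around the highest summit are shown for the widest region, the region with the highest signal, 2 regions with the largest rise and 2 with the largest fall against marker-negative cells, since their base composition and AP-1 motifs recur below. They are hg38, plus strand, 5′ to 3′. Capitals mark TGANTCA, the AP-1 motif, which is its own reverse complement.
LMNA, widest, chr1:156130100-156130399: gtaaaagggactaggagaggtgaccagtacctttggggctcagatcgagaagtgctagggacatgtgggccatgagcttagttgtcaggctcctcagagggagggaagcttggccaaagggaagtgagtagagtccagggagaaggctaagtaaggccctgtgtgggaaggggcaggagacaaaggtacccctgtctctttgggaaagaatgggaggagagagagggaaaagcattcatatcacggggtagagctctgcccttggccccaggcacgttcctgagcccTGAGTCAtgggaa
Between RYBP and SHQ1, highest signal, chr3:72663454-72663753: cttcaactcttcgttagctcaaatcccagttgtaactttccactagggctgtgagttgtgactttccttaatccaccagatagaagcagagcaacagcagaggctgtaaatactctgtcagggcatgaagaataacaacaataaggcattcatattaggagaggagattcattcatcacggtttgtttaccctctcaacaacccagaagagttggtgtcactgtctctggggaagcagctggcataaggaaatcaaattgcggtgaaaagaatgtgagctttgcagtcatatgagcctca
Inside CUEDC1, largest rise in EGFR-high, chr17:57898945-57899244: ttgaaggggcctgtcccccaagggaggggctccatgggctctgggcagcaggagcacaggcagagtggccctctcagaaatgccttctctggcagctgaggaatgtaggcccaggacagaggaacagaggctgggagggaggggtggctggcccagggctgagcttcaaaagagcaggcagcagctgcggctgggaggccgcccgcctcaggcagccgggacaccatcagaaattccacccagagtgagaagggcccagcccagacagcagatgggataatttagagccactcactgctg
Near ANO1, largest rise in EGFR/NGFR-high, chr11:69949456-69949755: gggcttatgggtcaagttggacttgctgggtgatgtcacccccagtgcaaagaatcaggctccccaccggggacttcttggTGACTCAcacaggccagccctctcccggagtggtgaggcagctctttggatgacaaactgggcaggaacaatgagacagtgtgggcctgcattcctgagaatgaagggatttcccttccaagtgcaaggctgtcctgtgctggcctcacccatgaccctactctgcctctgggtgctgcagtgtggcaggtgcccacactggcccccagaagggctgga
Near LRRC32, largest fall in NGFR-high, chr11:76605308-76605607: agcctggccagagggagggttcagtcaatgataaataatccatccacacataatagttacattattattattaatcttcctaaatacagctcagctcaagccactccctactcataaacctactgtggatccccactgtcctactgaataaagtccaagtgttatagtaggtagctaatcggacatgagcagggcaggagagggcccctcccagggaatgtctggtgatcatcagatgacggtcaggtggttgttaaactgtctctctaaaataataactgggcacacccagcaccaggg
PABPC4-AS1, largest fall in EGFR/NGFR-high, chr1:39565104-39565403: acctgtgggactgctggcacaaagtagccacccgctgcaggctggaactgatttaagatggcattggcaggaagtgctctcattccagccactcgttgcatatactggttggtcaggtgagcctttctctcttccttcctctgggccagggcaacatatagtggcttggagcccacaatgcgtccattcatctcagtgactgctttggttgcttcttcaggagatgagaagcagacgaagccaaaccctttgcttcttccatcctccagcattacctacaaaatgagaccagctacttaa
The windows at LMNA and near ANO1 hold 1 match each, and the other 4 hold none.

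The median merged width was 2495 bp, with quartiles of 2207 and 3009.5 bp, against 739 bp in narrower regions. At least 3000 bp were reached by 1781 regions, 5000 bp by 276 and 10000 bp by 47. Of 7085 merged regions of at least 2000 bp, 42 lacked a peak in a library, and a merged width grows with the number of libraries merged. Most broad regions joined neighbouring peaks. The peaks of a library formed 1 unbroken interval in 20.5 to 34.9% of them per library, and in every library in 70 (0.994%). Peaks covered a median of 2006 to 2266 bp of a broad region per library. In 2786 regions (39.6%) at least 2000 bp were covered in every single library, and in 1112 no library alone covered that much. These 1112 pass the width only as a union over libraries.

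**Figure D1:**
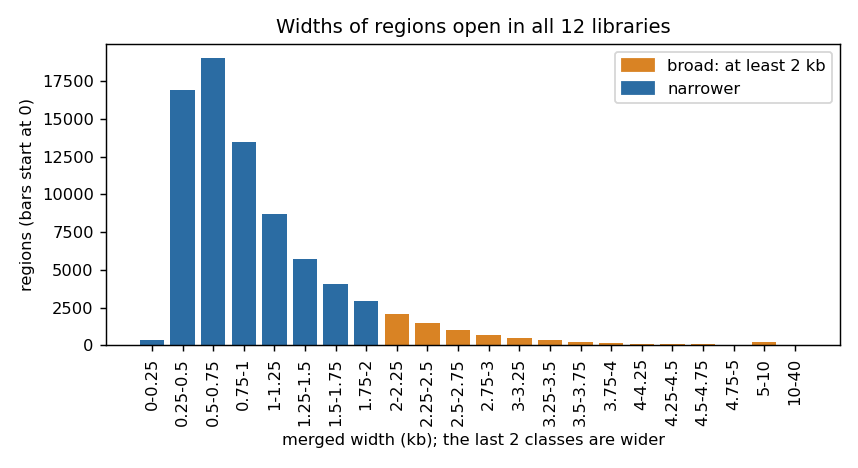
Number of regions open in all 12 libraries by merged width in kb, in classes of 0.25 kb up to 5 kb and 2 wider classes. The 7043 broad regions (orange) form the right tail, and 47 are at least 10000 bp wide.

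At the width limit itself, 7 broad regions measured 2000 bp and 9 narrower ones 1999 bp, and the first 5 of each in chromosome order (as text, 1, 12, 16) are given. Just inside stood the start of ACBD6 with a mean fold enrichment of 70.2, the start of ADCY9 with 14.6, a region near EEA1 with 43.4, a long noncoding RNA start on chromosome 17 with 39.2 and a region near SEMA5A with 112.4. Just outside stood the starts of F11R with 47.2, DNM3 with 17.8, ATRNL1 with 16.5 and TM7SF2 with 23.7, and a region near LPIN1 with 26.6.

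Fold enrichment is the height of the highest peak in a region over the background of the library, as the peak caller gave it. In all 12 libraries it came in whole multiples of 1 step per library within a tolerance of 0.05 steps, so the background was 1 constant per library (1.02 to 2.36 fragments), and a region's copy number is not divided out. The highest background, a measure of depth, was that of EGFR/NGFR-high replicate 1, with 2.36 against at most 1.51 in the others, and that library stands apart in depth. Averaged over the 12 libraries, the fold enrichment of broad regions had a median of 48.4 (quartiles 32.5 and 70.8), against 14.6 (9.26 and 25.9) in narrower ones. Above 100 were 656 broad regions (9.31%) and 0.546% of narrower ones, and under 10 were 162 broad regions. The members were chosen by width and not by height, but both come from the same peaks. Among broad regions, Spearman's rho of width and signal was 0.10, a description over regions that share libraries.

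By sort, the median broad region had a fold enrichment of 44.8 ± 2.98 in EGFR-high, 51.9 ± 1.40 in NGFR-high, 49.7 ± 5.39 in EGFR/NGFR-high and 46.9 ± 1.58 in marker-negative cells (mean ± SD of 3 library medians). The lowest library, EGFR-high replicate 1, stood at 42.7 and the highest, EGFR/NGFR-high replicate 1, at 55.6. The ranges of EGFR-high, EGFR/NGFR-high and marker-negative libraries overlapped one another, and those of NGFR-high and marker-negative libraries did not. The share of broad regions with at least 2000 bp covered was 56.1 ± 1.77% in marker-negative libraries and 57.9 ± 5.52% in EGFR-high ones. It was 65.6 ± 5.49% in NGFR-high and 62.7 ± 11.8% in EGFR/NGFR-high libraries, where depth also varied most. Summits of the median broad region held 88 to 186 fragments.

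Broad regions lay mostly at promoters. The start of the canonical transcript of a protein-coding gene fell inside 4511 of 7043 broad regions, 64.0% (95% exact binomial interval 62.9 to 65.2%, counting error only), against 8.85% of narrower regions and 5.0% of all merged regions. Another 6.36% held the start of a noncoding gene only. Without any start, 20.3% lay inside a protein-coding gene, 3.02% inside another gene and 6.23% outside genes, where narrower regions had 47.2%, 12.5% and 28.7%. At least 2 coding starts were in 665 broad regions (9.44%), and in 537 (7.62%) they lay on both strands, as in bidirectional promoters. The whole canonical transcript of a protein-coding gene fitted into 142 broad regions (2.02%), against 0.0267% of narrower ones. A wider region can hold more starts and longer genes, so the width rule itself raises these shares. With a coding start inside or within 1000 bp, the shares were 65.1% of broad and 10.3% of narrower regions. In 2564 broad regions with 1 coding start and no other start, 1062 bp lay upstream of it and 1437 bp downstream in the median, and the downstream side was the longer in 68.8%. Their highest summit lay 89 bp upstream of the start in the median, within 500 bp in 79.1%. Density ranged from 0.570 broad regions per Mb on chromosome X to 6.11 on chromosome 17, and that order is a description, since the chromosomes also differ in gene number and copy number was not measured.

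**Figure D2:**
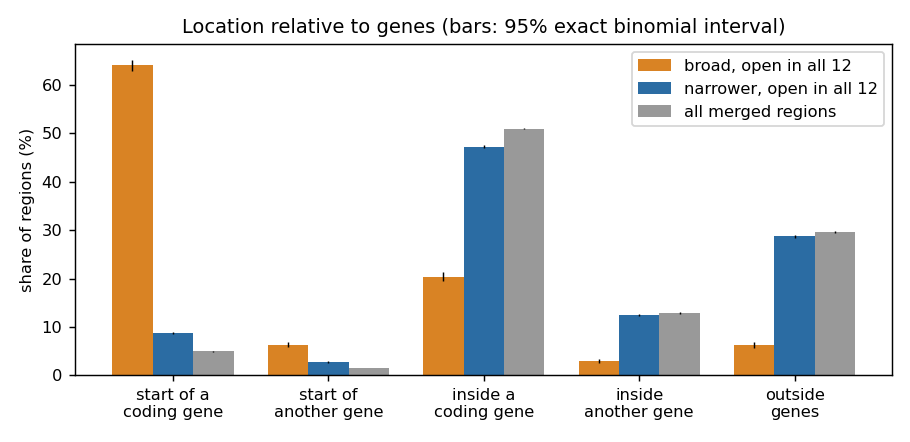
Share of regions in percent by location relative to GENCODE genes, for 7043 broad, 71229 narrower and 230774 merged regions, with 95% exact binomial intervals. The start of a coding gene holds 64.0% of broad regions and 8.85% of narrower ones.

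The sequence at their summits differed from that of narrower regions. In 300 bp around the highest summit, GC content had a median of 63.7% in broad regions and 46.3% in narrower ones, and the ratio of observed to expected CpG was 0.746 and 0.223. Among regions with a coding start these medians were near each other, with 67.7% GC in broad and 65.7% in narrower regions. Without one, broad regions had 52.0% and narrower ones 45.3%. Motifs were searched on both strands as exact letters. GGGCGG, the box of SP factors, was found in 58.4% of broad and 14.9% of narrower windows, and CCGGAAG, of ETS factors, in 11.7% and 3.58%. TGANTCA was found in 11.7% and 20.9%, and ACAATG, of SOX factors, in 9.12% and 19.1%. Broad regions without a coding start had TGANTCA in 22.99%, near the 22.5% of narrower regions without one. A match is a description of letters, not a bound site.

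The widest regions reached far into or over genes. LMNA, which codes for the nuclear lamins A and C, lay wholly inside the widest, 36493 bp on chr1:156112065-156148557, of which 23107 to 35806 bp were covered per library. Fold enrichment there was 99.5, 102, 106 in EGFR-high, 99.8, 104, 107 in NGFR-high, 122, 108, 103 in EGFR/NGFR-high and 95.9, 100.4, 98.3 in marker-negative libraries. All libraries were of like height and no difference among the sorts was called (limma, adjusted p = 0.14). Others among the widest were EEF1D with NAPRT at 17874 bp, ZNFX1 at 16434 bp, the clock gene PER1 at 16277 bp and the nuclear noncoding RNA NEAT1 at 15820 bp. Next came a region inside NFATC2 at 15582 bp, the splicing factor SFPQ at 14910 bp, the small MAF gene MAFF at 14736 bp and the miRNA cluster of MIR23A, MIR27A and MIR24-2 at 14561 bp. Height did not follow width there, as SFPQ had a mean fold enrichment of 11.8 and ZNFX1 117.

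Of the 47 regions of at least 10000 bp, 42 overlapped the canonical transcript of a protein-coding gene, 13 of them over more than 90% of its length, and 17 held a whole gene. Among the latter were VIM (vimentin) with 12602 bp, EGR1 and FOSB, which are immediate early transcription factors, with 11421 and 12366 bp, EEF2, a translation elongation factor, with 10800 bp, and the ribosomal protein genes RPL3 and RPL13A with 12725 and 10024 bp. CCND1, which codes for cyclin D1, was covered over 85.2% of its length. Taking for each region the 1 coding gene with the longest overlap, although some regions hold several, the median was 44.2 CPM in WM989 single cells, above 83.5% of coding genes, and 16 of 42 reached 100 CPM. The other 5, the NEAT1 region among them, overlapped no canonical coding transcript. The NFATC2 region is also one of these, as it lies within the gene but upstream of the canonical start.

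RNA values come from the study's 10x 3′ counts of WM989 cells, which are tags per transcript and not divided by length. The study's methods describe a mixed well and a well sorted for high EGFR and NGFR in this experiment. Primed cells were thus enriched, with 1704 beside 5886 drug-susceptible cells in repeat r1 and 1139 beside 3802 in repeat r2. Coding genes that start in a broad region had a median of 23.8 CPM (5082 genes), 20.9 in repeat r1 and 26.7 in repeat r2. Those in narrower regions open in all 12 libraries had 13.4 CPM (6711 genes; 11.9 and 14.9). At least 10 CPM were reached by 74.2% and 56.8%, and less than 1 CPM was found for 3.58% and 13.3%. Genes that start in a broad region of at least 3000 bp had a median of 27.8 CPM. With a peak at the start in fewer libraries the median was 0.213 CPM, and without a peak 0.0133 CPM. In WM983B, another melanoma line, the medians were 29.97 CPM for the genes at WM989 broad regions and 18.1 CPM for those at narrower ones.

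**Figure D3:**
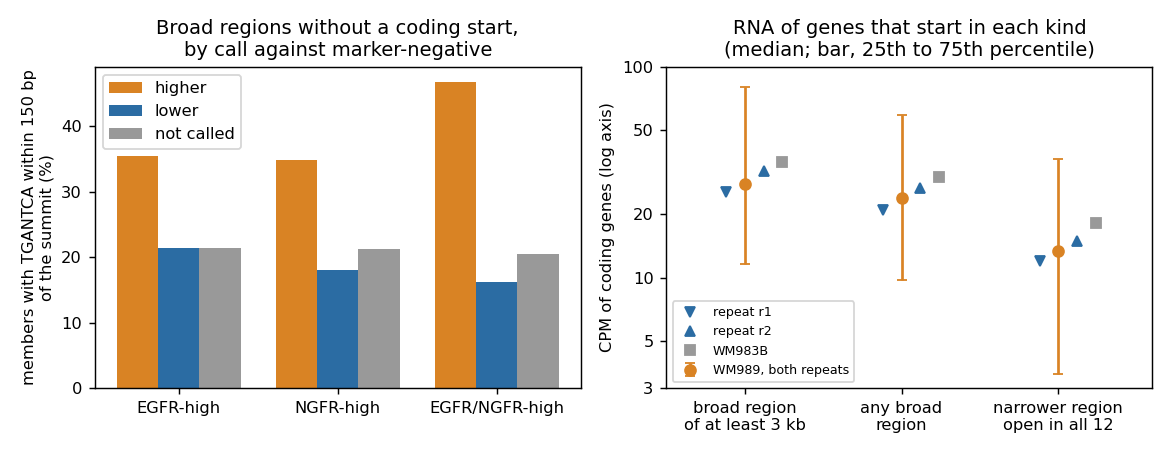
Left, percent of broad regions without a coding start that hold TGANTCA within 150 bp of the summit, by call in each sort against marker-negative cells; the highest bar is 46.7%. Right, CPM (log axis) of coding genes by the kind of region at their start, median with quartiles in WM989, medians of repeats r1 and r2, and WM983B; medians were 23.8 for broad and 13.4 for narrower regions.

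Gene lists were read at their starts. Of 20020 coding genes, 5234 (26.1%) start in a broad region. All 13 of 13 ERK feedback genes did so, among them the phosphatase DUSP6 with 5469 bp and a mean fold enrichment of 89.3, the transcription factor ETV5 with 112 and the inhibitor SPRY2 with 94.0. So did 11 of 14 AP-1 genes, 11 of 14 PI3K/FOXO genes, 10 of 13 cell cycle genes, 8 of 11 YAP/TEAD genes, 10 of 15 TGF-beta genes, 11 of 19 melanocyte identity genes and 4 of 6 long noncoding RNAs. Core histone genes stood at 59 of 88, often several to a region (37 regions), HOX genes at 9 of 39, zinc finger genes at 85 of 515 and ribosomal protein genes at 33 of 97. The symbol pattern for the last also takes kinases named RPS6K. The base of 26.1% takes in 7104 coding genes without a peak at the start, a group with a median RNA of 0.0133 CPM where matched. No share among expressed genes is set beside the lists. Of 14 markers of the primed state, 3 had a broad start (FN1, PDGFC and VGF), and 9, EGFR and NGFR among them, had a narrower one. None of the 15 keratinocyte, leukocyte, endothelial and fibroblast markers had a peak at its start. Of the melanocyte identity starts, 14 of 19 were open in all 12 libraries, and the defining markers of the other cell types gave no peak.

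The 4 sorts were compared region by region on log2 fold enrichment, centred on each library's median over the 78272 regions open in all 12, with limma and Benjamini-Hochberg adjustment over all 78272 (two-sided, called at an adjusted p under 0.05). Most broad regions passed no test. A difference among the sorts was called in 980 of 7043 (13.9%), against 18.2% of all regions tested. Broad regions and all regions differ in location, and the order turns when regions are split by coding start, as given below. Broad regions varied less between libraries of a sort, with a median residual SD of 0.15 on the log2 scale against 0.25 in narrower ones. Narrower regions with a coding start had 0.175 at a median fold enrichment of 30.8, and those without one 0.253 at 13.7. Broad regions had 0.146 at 48.1 and 0.150 at 48.8. Height and location thus differed along with width, and their parts were not separated. Against marker-negative cells, 598 broad regions (8.49%) rose in EGFR-high cells, where 6.58% of all regions did, and 62 (0.880%) fell, against 3.30%. In NGFR-high cells 674 (9.57%) rose, against 9.27%, and 128 (1.82%) fell, against 6.58%. In EGFR/NGFR-high cells 359 (5.10%) rose, against 8.93%, and 215 (3.05%) fell, against 6.85%. Between the single-marker sorts, 37 (0.525%) were higher in NGFR-high cells, against 1.28%, and 71 (1.01%) in EGFR-high cells, against 1.13%. The width was taken over the union of the 3 marker-high sorts and the marker-negative one. A region can thus pass it through marker-high libraries alone, so the rule may favour rises over falls, which was not tested. The first 3 comparisons share their marker-negative libraries. In these 3, 186 broad regions rose in every sort (2.64%, against 3.66% of all regions) and 34 fell in every sort (0.483%, against 1.67%). A single one rose in a sort and fell in another (0.0142%, against 0.00383%), and 5743 (81.5%, against 76.5%) were not called.

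The median log2 difference of broad regions was 0.13 in EGFR-high, 0.12 in NGFR-high and 0.03 in EGFR/NGFR-high cells, where all regions had 0.03, 0.03 and -0.01. More than 2-fold and called were 14 (0.199%), 28 (0.398%) and 27 (0.383%) broad regions, against 1.71%, 3.61% and 3.95% of all regions, and 3 (0.0426%, against 0.451%) between NGFR-high and EGFR-high cells. The split between rises and falls moved with the scaling and the regions fitted. Without centring, the median over all regions shifted to -0.16 in EGFR-high cells and to 0.20 between NGFR-high and EGFR-high cells. The median of broad regions was then -0.06 in EGFR-high, 0.14 in NGFR-high and 0.08 in EGFR/NGFR-high cells, and 0.20 between NGFR-high and EGFR-high cells. In that setting 65 broad regions rose and 255 fell in EGFR-high cells, with 456 higher and 2 lower between the single-marker sorts. With quantile normalization, 324 rose and 121 fell in EGFR-high cells, 435 and 182 in NGFR-high cells, and 47 were higher and 40 lower between the single-marker sorts. When regions with a peak in at least 3 libraries entered the fit and its centring, the splits were 153 to 138 in EGFR-high, 326 to 160 in NGFR-high, 170 to 434 in EGFR/NGFR-high cells and 32 to 9 between the single-marker sorts. In NGFR-high cells rises outnumbered falls under each of these settings, and without centring they were 472 to 92 there and 350 to 91 in EGFR/NGFR-high cells. The side with more calls changed in EGFR-high cells without centring, in EGFR/NGFR-high cells with the larger region set, and between the single-marker sorts under all 3. These counts are of broad regions alone, without the share over all regions under each setting, so the shifts are not shown to be particular to broad regions.

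**Figure D4:**
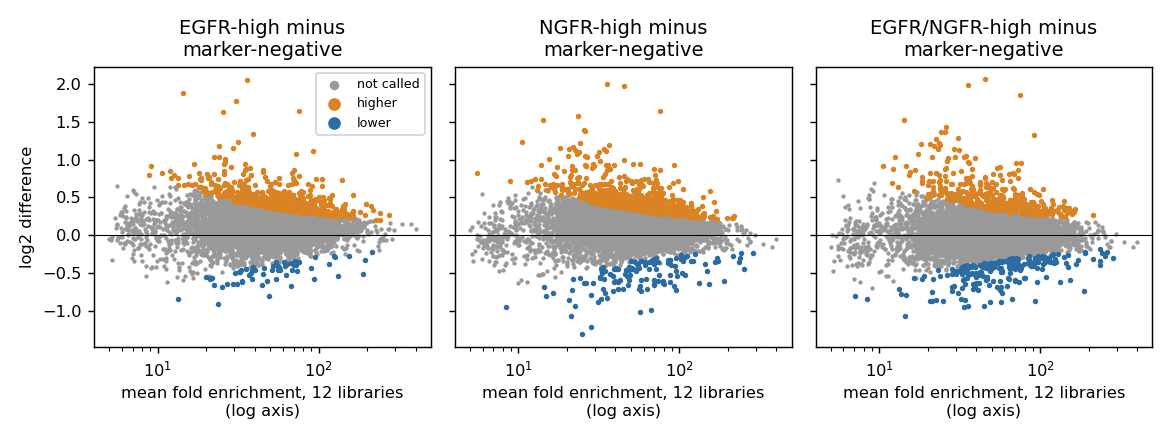
Log2 difference in centred fold enrichment of 7043 broad regions between each marker-high sort and marker-negative cells, against mean fold enrichment (log axis), 1 point per region. Orange points rose and blue points fell at an adjusted p under 0.05 (limma); 14, 28 and 27 called regions lie beyond 2-fold.

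Single libraries also carried some of the counts, which are again of broad regions alone. The 660 calls of EGFR-high cells became 350 without EGFR-high replicate 1, 399 without EGFR-high replicate 2, 421 without marker-negative replicate 1 and 389 without marker-negative replicate 2. The 802 calls of NGFR-high cells became 414 without NGFR-high replicate 1, 527 without NGFR-high replicate 2 and 507 without marker-negative replicate 2. The 574 calls of EGFR/NGFR-high cells became 367 without EGFR/NGFR-high replicate 1, the deepest library. The 108 calls between single-marker sorts became 60, 65 and 63 without EGFR-high replicates 1, 2 and 3, and 33 and 52 without NGFR-high replicates 1 and 2. The 980 regions that differed among the sorts became 639 without marker-negative replicate 2.

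The share of regions called was lower at promoters. Among broad regions with a coding start, 404 of 4511 (8.96%) differed among the sorts, and among those without one 576 of 2532 (22.7%) did. The share was 23.3% inside coding genes, 30.05% inside other genes and 27.6% outside genes. Narrower regions showed 5.72% with a coding start and 19.9% without. Both were below the broad shares, although over all locations broad regions had 13.9% and narrower ones 18.6%. At starts of noncoding genes only, broad regions had 12.7% and narrower ones 15.8%. The median fold enrichment of broad regions was 48.1 with and 48.8 without a coding start. Because most broad regions are promoters, 313 of 598 rises in EGFR-high, 332 of 674 in NGFR-high and 98 of 359 in EGFR/NGFR-high cells still had a coding start. So did 6 of 62, 12 of 128 and 61 of 215 falls. Of broad regions with a coding start, these rises were 6.94%, 7.36% and 2.17%, against 4.17%, 5.28% and 2.03% of narrower ones. The falls were 0.133%, 0.266% and 1.35%, against 0.285%, 0.571% and 0.999%. Without a coding start, rises were 11.3%, 13.5% and 10.3% against 6.61%, 9.62% and 10.0%. Falls there were 2.21%, 4.58% and 6.08% against 3.86%, 7.68% and 7.83%.

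Rises without a coding start often held AP-1 motifs. In EGFR/NGFR-high cells, 122 of 261 such rises (46.7%) held TGANTCA near the summit, as did 25 of 154 falls (16.2%) and 20.6% of regions not called. In EGFR-high cells the shares were 35.4% of 285 rises, 21.4% of 56 falls and 21.4% of the rest, and in NGFR-high cells 34.8% of 342, 18.1% of 116 and 21.3%. ACAATG, the SOX motif, was found in 20 of 56 falls in EGFR-high cells (35.7%) and in 15.2% of regions not called, whereas falls in NGFR-high and EGFR/NGFR-high cells had it in 15.5% and 18.8%, and uncalled regions in 15.6% and 15.6%. GGAATG, bound by TEAD factors, was found in 26.4% of rises and 17.7% of uncalled regions in EGFR/NGFR-high cells. These shares are descriptions over regions of the same 12 libraries. The window lies on the highest summit over all 12 libraries, so its place depends on the values that also made the calls. Narrower regions were not split by call, so these shares are not shown to be particular to broad regions. Median GC content in the EGFR/NGFR-high comparison was 48.7% in rises, 48.5% in falls and 52.7% in uncalled regions.

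The largest rises lay away from coding starts, in distal sites, inside genes and at a noncoding gene start. The region near ANO1, a chloride channel gene whose start lies 127786 bp away, spans 2977 bp on chr11:69947555-69950531 outside genes. Fold enrichment there was 17.9, 15.1 and 16.5 in marker-negative libraries, 29.5, 30.7 and 20.1 in EGFR-high, 75.6, 59.5 and 62.5 in NGFR-high, and 85.1, 65.7 and 64.5 in EGFR/NGFR-high ones. No marker-high library reached down to a marker-negative one, and both sorts high for NGFR stood above EGFR-high cells. The log2 difference was 0.87 ± 0.15 (SE, adjusted p = 1.7e-05) in EGFR-high, 1.97 ± 0.15 (adjusted p = 6.2e-16) in NGFR-high and 2.06 ± 0.15 (adjusted p = 4.2e-17) in EGFR/NGFR-high cells. Between NGFR-high and EGFR-high cells it was 1.104 ± 0.15 (adjusted p = 1.9e-06). Its summit window, printed above, has an AP-1 match 68 bp before the summit. ANO1 itself was scarce in single cells, with 0.0304 CPM in drug-susceptible cells and 0.385 CPM in primed ones.

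The region inside CUEDC1, a gene of little known function, on chr17:57898089-57900178, rose in all 3 marker-high sorts. Marker-negative libraries had a fold enrichment of 8.1, 14.1 and 11.6, EGFR-high ones 50.4, 35.9 and 35.2, NGFR-high ones 51.3, 43.3 and 40.4, and EGFR/NGFR-high ones 59.2, 36.4 and 43.2. The lowest marker-high library was above every marker-negative one. Log2 differences were 2.06, 2.01 and 1.99 (SE 0.17, largest adjusted p = 1.8e-13), and between NGFR-high and EGFR-high cells -0.05 ± 0.17 (adjusted p = 0.94). The window has no AP-1 match and 63.0% GC, and CUEDC1 RNA was at 18.3 CPM in drug-susceptible cells and 18.0 CPM in primed ones.

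On chromosome 3, a region outside genes, whose nearest coding start is that of MDFIC2, 519118 bp away (chr3:70831756-70833771), stood at 28.7, 26.4 and 29.5 in marker-negative libraries. It was at 78.5, 81.8 and 71.0 in EGFR-high, 115.7, 76.1 and 79.9 in NGFR-high and 116.9, 101.1 and 98.7 in EGFR/NGFR-high libraries. The log2 differences were 1.64, 1.64 and 1.85 (SE 0.12, largest adjusted p = 3.7e-16). An intron of MAGI1, a scaffold protein of cell junctions (chr3:65963314-65965462), had 14.3, 13.7 and 14.04 in marker-negative and 52.5, 39.7 and 35.7 in EGFR-high libraries. NGFR-high libraries had 37.8, 26.2 and 25.9, and EGFR/NGFR-high ones 51.5, 30.7 and 28.3. All marker-high libraries were above the marker-negative ones, and the rise of 1.78 ± 0.17 in EGFR-high cells exceeded that of NGFR-high cells by 0.73 ± 0.17 on the log2 scale (adjusted p = 0.010). That difference lost its call in 6 of 19 alternatives, among them no centring (-0.51, adjusted p = 0.068) and leaving out EGFR-high replicate 1 (-0.53, adjusted p = 0.15), NGFR-high replicate 2 (-0.64, adjusted p = 0.077) or NGFR-high replicate 3 (-0.64, adjusted p = 0.055). MAGI1 RNA was at 52.7 CPM in drug-susceptible cells and 141 CPM in primed ones.

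Within the gene of the urea transporter SLC14A2 (chr18:45588137-45590195), marker-negative libraries had 5.8, 6.1 and 4.8, EGFR-high ones 19.6, 17.0 and 17.1, NGFR-high ones 23.5, 14.4 and 12.7 and EGFR/NGFR-high ones 20.8, 15.1 and 14.4. Log2 differences were 1.88, 1.52 and 1.52 (SE 0.23, largest adjusted p = 8.3e-07). A noncoding gene start 2440 bp from that of the protocadherin PCDH1 (chr5:141880850-141883861) had 11.2, 13.2 and 11.6 in marker-negative and 38.6, 40.2 and 30.6 in NGFR-high libraries. EGFR-high libraries stood between, at 19.6, 14.2 and 14.7, and the NGFR-high level exceeded theirs by 0.97 ± 0.18 (log2, adjusted p = 1.0e-03). In BCAR1, which codes for an adaptor of integrin signalling, NGFR-high libraries at 38.2, 29.7 and 26.8 exceeded EGFR-high ones at 14.1, 14.7 and 10.3 by 1.07 ± 0.19 (adjusted p = 6.2e-04), a call lost with a length-weighted mean (0.89, adjusted p = 0.057).

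Falls were smaller than the largest rises. Near LRRC32, which codes for a protein that docks latent TGF-beta (chr11:76604428-76606574), marker-negative libraries had 39.4, 38.6 and 38.7. NGFR-high libraries had 11.9, 14.9 and 23.04, EGFR-high ones 17.9, 19.4 and 27.4 and EGFR/NGFR-high ones 19.0, 18.0 and 31.8. Every marker-high library was below the marker-negative ones, and NGFR-high cells fell by 1.30 on the log2 scale (SE 0.20, adjusted p = 3.6e-06). At PABPC4-AS1 (chr1:39562932-39565891) marker-negative libraries had 21.5, 23.6 and 18.9 and EGFR/NGFR-high ones 11.9, 11.3 and 8.4. EGFR/NGFR-high cells fell there by 1.07 (SE 0.21, adjusted p = 1.4e-04), and the NGFR-high value was -0.68 (adjusted p = 0.019) and the EGFR-high value -0.60 (adjusted p = 0.061).

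Falls in EGFR-high cells were led by a region inside LRRC59 and EME1, a ribosome-binding membrane protein and an endonuclease subunit. EGFR-high libraries had 13.2, 15.6 and 14.2 against 29.1, 29.2 and 34.4, a fall by 0.91 (adjusted p = 1.0e-04). An intron of MYLK, the myosin light chain kinase gene, had 5.5, 7.6 and 11.3 against 13.4, 19.8 and 15.5 (-0.85, adjusted p = 0.011), and lost the call without EGFR-high replicate 1 (adjusted p = 0.12) or marker-negative replicate 2 (adjusted p = 0.11). An intron of SEMA5A, an axon guidance gene, had 31.2, 36.9 and 39.6 against 63.2, 80.1 and 70.7 (-0.80, adjusted p = 3.0e-05). Among sites 10096 bp from FOLR1 and 7132 bp from CTTN, the folate receptor and cortactin genes, the first fell by 1.22 in NGFR-high cells (adjusted p = 4.1e-07) and the second by 0.94 in EGFR/NGFR-high cells (adjusted p = 2.2e-06). The FOLR1 site was also lower in NGFR-high than in EGFR-high cells, by -1.20 ± 0.18 (adjusted p = 1.2e-05), a call lost with a length-weighted mean (-0.79, adjusted p = 0.070), and its EGFR-high value against marker-negative cells was -0.01 ± 0.18. Inside IDS, the gene of the lysosomal iduronate 2-sulfatase, NGFR-high libraries had 12.3, 19.2 and 15.5 against 33.2, 35.8 and 27.1, a fall by 1.06 (adjusted p = 2.8e-05). A site outside genes, 24237 bp from the start of the nucleic acid sensor ZBP1, had 33.9, 24.1 and 22.3 in EGFR/NGFR-high libraries against 57.3, 50.4 and 40.7, a fall by 0.95 (adjusted p = 3.5e-06). In each of these 2 comparisons the libraries did not overlap. Inside EBF1, a transcription factor gene, NGFR-high libraries at 19.1, 21.9 and 16.9 were below EGFR-high ones at 29.9, 26.9 and 23.005 by -0.68 ± 0.17 (adjusted p = 0.018), a call lost in 6 of 19 alternatives (-0.23, adjusted p = 0.71 with a length-weighted mean).

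**Figure D5:**
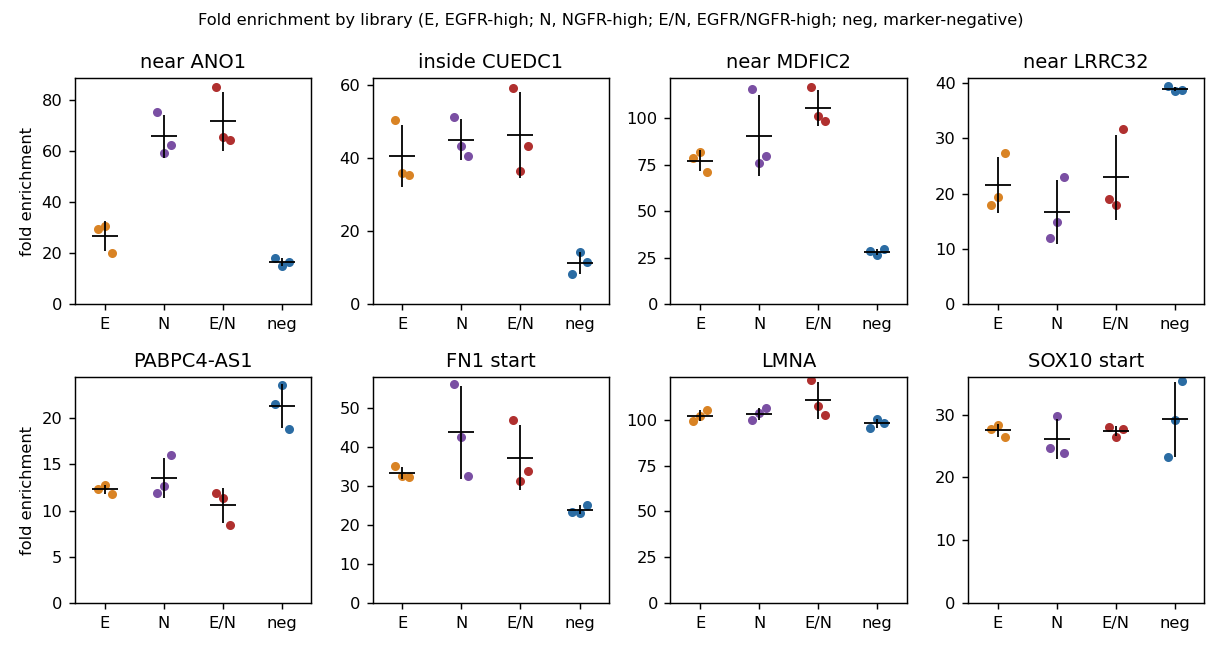
Fold enrichment in each of the 12 libraries (points) at 8 broad regions, with the mean and SD of 3 libraries per sort (line and bar) and axes that start at 0. The 3 upper left panels show rises and the next 2 falls against marker-negative cells, FN1 rose, and LMNA and SOX10 were not called.

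At promoters of genes that mark the primed state, 1 of 3 in broad regions was called in a comparison. Of all 4511 broad regions with a coding start, 627 (13.9%) were called in at least 1 of the 4. FN1 codes for fibronectin, a matrix protein of the primed state, and its start lies in a region of 2638 bp on chr2:215435040-215437677. Marker-negative libraries had a fold enrichment of 23.3, 23.1 and 25.2, EGFR-high ones 35.0, 32.6 and 32.3, NGFR-high ones 56.1, 42.4 and 32.4 and EGFR/NGFR-high ones 46.7, 31.2 and 33.7. All marker-high libraries were above all marker-negative ones. Log2 differences were 0.67 (adjusted p = 2.0e-03), 0.82 (adjusted p = 7.8e-05) and 0.57 (adjusted p = 6.1e-03), each with an SE of 0.15, and the last lost the call without EGFR/NGFR-high replicate 1 (adjusted p = 0.068). FN1 RNA was at 98.7 CPM in drug-susceptible single cells and 3771 CPM in primed ones. The starts of PDGFC, a growth factor, and VGF, a secreted peptide precursor, were not called.

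Of 11 melanocyte identity starts in broad regions, 1 was called in a comparison, near the 13.9% of all broad regions with a coding start. It was SNAI2, which rose by 0.36 in EGFR-high cells (adjusted p = 7.2e-03). It lost the call in 5 of 19 alternatives, with 0.17 (adjusted p = 0.38) without centring, 0.27 (adjusted p = 0.056) with quantile normalization and 0.30 (adjusted p = 0.079) without EGFR-high replicate 1. SOX10, the lineage factor, had 23.3, 29.2 and 35.3 in marker-negative, 27.7, 28.4 and 26.4 in EGFR-high, 24.7, 29.7 and 23.98 in NGFR-high and 28.0, 26.5 and 27.8 in EGFR/NGFR-high libraries. The sorts overlapped there (adjusted p = 0.48), while SOX10 RNA was at 130 CPM in drug-susceptible cells and 7.09 CPM in primed ones. The start shared by PMEL, a melanosome protein, and CDK2 was not called either (adjusted p = 0.57), with PMEL RNA at 2158 CPM in drug-susceptible and 66.8 CPM in primed cells. MITF, in a stretch of chromosome 3 with high signal described below, had a mean fold enrichment of 272.7 and differed among the sorts (adjusted p = 0.016) without a call in any of the 4 comparisons, and its RNA was at 313 CPM and 45.7 CPM in the same order. RNA and chromatin come from separate cells and sorts, and the RNA values were not tested here.

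Among AP-1 starts, FOSL2 rose in NGFR-high cells by 0.32 (adjusted p = 0.012) and in EGFR/NGFR-high cells by 0.32 (adjusted p = 9.5e-03), JUNB in NGFR-high cells by 0.32 (adjusted p = 0.026) and JUND in EGFR-high cells by 0.32 (adjusted p = 0.045). FOSL2 also rose in EGFR-high cells, by 0.27 (adjusted p = 0.0495). JUN, in a region of 7175 bp, had values of 0.06, -0.01 and -0.02 without a call, with RNA at 3.46 CPM in drug-susceptible cells and 90.4 CPM in primed ones. Of 8 YAP/TEAD starts, TEAD4 rose in EGFR-high cells by 0.55 (adjusted p = 0.013), and TEAD1 rose by 0.40 in EGFR-high (adjusted p = 0.032) and by 0.40 in NGFR-high cells (adjusted p = 0.020). Of 10 TGF-beta starts, ID3, an inhibitor of helix-loop-helix factors, rose in NGFR-high cells by 0.35 (adjusted p = 0.036) and SMAD3, a signal transducer, fell in EGFR/NGFR-high cells by 0.42 (adjusted p = 0.037). Each call in this paragraph was lost without at least 1 library, and of 19 alternatives JUND lost its call in 12 (0.12, adjusted p = 0.59 without centring), JUNB in 8, FOSL2 in 14, 3 and 4 (EGFR-high, NGFR-high and EGFR/NGFR-high), TEAD1 in 8 and 5, TEAD4 in 5, ID3 in 7 and SMAD3 in 6. Of 11 PI3K/FOXO starts, the smallest adjusted p was that of IRS1, an insulin receptor substrate, at 0.49 in EGFR-high cells (adjusted p = 0.066).

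Of 13 ERK feedback starts, SPRY4 and IER3 rose in NGFR-high cells by 0.45 (adjusted p = 0.018) and 0.38 (adjusted p = 0.014), and SPRY1 was lower in NGFR-high than in EGFR-high cells by -0.58 (adjusted p = 0.034). Of 10 cell cycle starts, the inhibitor CDKN1A rose in EGFR-high cells by 0.53 (adjusted p = 0.036) and in NGFR-high cells by 0.69 (adjusted p = 2.8e-03). CDKN1B rose in EGFR-high cells by 0.51 (adjusted p = 2.0e-03), and CCND3 and E2F1 in NGFR-high cells by 0.45 (adjusted p = 0.026) and 0.30 (adjusted p = 0.033). CCND1, in a like stretch of chromosome 11, differed among the sorts (adjusted p = 0.047) without a call in a comparison, with RNA at 445 CPM in drug-susceptible cells and 4100 CPM in primed ones. The noncoding RNA NEAT1 rose by 0.40 in NGFR-high cells (adjusted p = 7.1e-03). Of 19 alternatives, the call was lost in 9 for E2F1 (0.20, adjusted p = 0.24 without marker-negative replicate 1), in 8 for SPRY1, in 7 for CCND3 and for CDKN1A in EGFR-high cells (0.29, adjusted p = 0.50 with a length-weighted mean), in 6 for SPRY4, in 4 for IER3, in 2 for CDKN1B and NEAT1 and in 1 for CDKN1A in NGFR-high cells. Leaving out a single library was enough for each of these except CDKN1B and CDKN1A in NGFR-high cells. Calls in at least 1 comparison thus covered 3 of 11 AP-1, 2 of 8 YAP/TEAD, 2 of 10 TGF-beta, 0 of 11 PI3K/FOXO, 3 of 13 ERK feedback and 4 of 10 cell cycle starts, beside 13.9% of all broad regions with a coding start. Over all broad regions with a coding start, 313 rose and 6 fell in EGFR-high, 332 and 12 in NGFR-high and 98 and 61 in EGFR/NGFR-high cells. The medians of these lists lay within -0.03 and 0.24 in the first 2 sorts, where that of all such regions was 0.14.

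The wide region in NFATC2, which codes for a calcium-regulated transcription factor, rose in all 3 sorts. Marker-negative libraries had 9.4, 11.3 and 10.2, EGFR-high ones 19.2, 21.7 and 12.2, NGFR-high ones 20.7, 23.2 and 12.7 and EGFR/NGFR-high ones 24.99, 22.2 and 12.9. Replicate 3 was the lowest of each marker-high sort and still above all marker-negative libraries. Log2 differences were 0.94 (adjusted p = 3.1e-03), 0.81 (adjusted p = 7.6e-03) and 0.86 (adjusted p = 4.2e-03). The NGFR-high call was lost without NGFR-high replicate 1 (0.72, adjusted p = 0.057) or 2 (0.64, adjusted p = 0.089), and the EGFR/NGFR-high call without EGFR/NGFR-high replicate 2 (0.72, adjusted p = 0.052). NFATC2 RNA went the other way, with 36.1 CPM in drug-susceptible cells and 3.46 CPM in primed ones.

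For broad regions with 1 coding start whose gene reached 10 CPM in a state, RNA was set beside the calls (3084 genes, log2 ratio of primed to drug-susceptible CPM with a pseudocount of 1). The median ratio was 0.63 for 77 genes whose region rose in EGFR/NGFR-high cells (0.66 in repeat r1 and 0.55 in r2), -0.11 for 43 whose region fell and 0.04 for 2964 not called. More than 2-fold higher RNA in primed cells was found for 32 of the 77 (41.6%), 8 of the 43 (18.6%) and 9.89% of those not called, and more than 2-fold lower RNA for 3 (3.90%), 8 (18.6%) and 7.52%. For rises in EGFR-high and NGFR-high cells the medians were 0.25 (234 genes) and 0.19 (244 genes), and 17.9% and 16.4% had RNA more than 2-fold higher in primed cells, against 10.2% and 10.3% of genes not called.

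The highest signals clustered on 2 chromosomes. Of 34 broad regions with a mean fold enrichment above 200, 20 lay between 61 and 74 Mb of chromosome 3 and 8 between 69 and 77 Mb of chromosome 11. These 2 stretches were chosen after their values were seen. The highest was the region between RYBP and SHQ1, at 369.6 to 429.1 over the libraries (mean 400.1), followed by the starts of KBTBD8 (374.5), C2CD3 and PPME1 (330.0) and LRIG1 (295.3), an inhibitor of receptor tyrosine kinases, and a region inside GXYLT2 (285.1). Inside GXYLT2, a xylosyltransferase gene, marker-negative libraries had 327.5, 336.0 and 300.1 and EGFR/NGFR-high ones 286.5, 256.6 and 267.5, and EGFR/NGFR-high cells fell by 0.30 (adjusted p = 3.2e-04), a call lost with quantile normalization (-0.16, adjusted p = 0.056) and a length-weighted mean (-0.25, adjusted p = 0.50). The median broad region had 97.0 in the chromosome 3 stretch (149 regions), 86.9 in that of chromosome 11 (93 regions) and 47.8 elsewhere (6801 regions). Narrower regions in the same stretches had 12.9 and 16.4, against 14.6 elsewhere. The stretches held 910 and 527 regions open in all 12 libraries, 149 and 93 of them broad, against 76835 elsewhere with 6801 broad. Which regions pass the peak call and the width rule can depend on their height, so the narrower medians do not measure copy number. That dependence was not tested. A difference among the sorts was called in 70 (47.0%), 37 (39.8%) and 873 (12.8%) of these broad regions, and in 35.1%, 33.0% and 17.9% of all regions in the same places. Against marker-negative cells, their median log2 differences were 0.04, 0.06 and 0.13 in EGFR-high and -0.07, -0.09 and 0.13 in NGFR-high cells. In EGFR/NGFR-high cells they were -0.07, -0.11 and 0.03, and between NGFR-high and EGFR-high cells -0.13, -0.15 and -0.01. The medians of both stretches thus lay below those elsewhere. Since the background is 1 constant per library, more DNA copies and more accessibility cannot be told apart there. The sites near ANO1, MDFIC2, LRRC32, FOLR1 and CTTN and in MAGI1 lie in these stretches, which held 6 of the 17 regions named for rises or falls, and so do the starts of MITF and CCND1. Between NGFR-high and EGFR-high cells the starts of KBTBD8 and of C2CD3 and PPME1 were lower by -0.30 (adjusted p = 5.5e-03) and -0.26 (adjusted p = 0.013), and lost the call in 6 and 8 of 19 alternatives. Both went the way of the median of their stretch in that comparison (-0.13 and -0.15).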

How the data were processed

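ATAC-seq libraries were made from sorted WM989 cells. The authors aligned reads to hg38 with Bowtie2 2.3.4.1 and called peaks per library with MACS2 2.1.1.20160309, and SAMtools 1.1 is named in the processing notes. The deposited peak lists give fold enrichment (a ratio), −log10 p and −log10 q values and a score per summit. Total read depth is not given in the sources used here. The background of each library was recovered from the fold enrichment steps. The deposited single-cell counts are 10x 3′ UMI counts from Cell Ranger, and the deposited cell tables give states. UMIs were summed per state and repeat (1139 to 5886 cells and 93874834 to 344945114 UMIs in WM989) and expressed as CPM. The study's methods removed likely doublets as cells with many genes, and no doublet caller was run here. Of 33538 genes, 23266 matched GENCODE 44. Another single-cell experiment, on treatments, was not used here. One of the widest regions and 1 other gene are not reported here.

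Regions were merged and annotated with Python 3.11.15, pandas 2.3.3, numpy 2.4.6 and pysam 0.24.0, with canonical GENCODE 44 starts on hg38, and figures drawn with matplotlib 3.10.9. A library's value per region is its highest fold enrichment. Tests used limma 3.58.1 (trend, robust, statmod 1.5.0) in R 4.3.3 with 8 residual degrees of freedom, and were tested on simulated data. Located in the reference were 7042 of the 7043 regions. Named are the 10 widest and 5 highest regions, the 3 largest rises and falls of each comparison that passed the test without overlap of libraries, the 5 regions on each side of the width limit, and starts of the listed genes. The members and lists were chosen with earlier results of these data known. Alternatives were other widths, peak thresholds, scalings, summaries, region sets, leaving out each library, and a replicate block.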

Additional observations from a re-analysis of the deposited data

How the results depend on the processing

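The number of broad regions was 14045 at a width of at least 1500 bp, 1781 at 3000 bp and 2786 when every library had to cover 2000 bp, and between 6713 and 6972 when a library was left out. Without centring, 320 were called in EGFR-high cells and 458 between NGFR-high and EGFR-high cells. With a length-weighted mean of fold enrichment in place of the maximum, 534 differed among the sorts, 344 were called in EGFR-high, 510 in NGFR-high and 375 in EGFR/NGFR-high cells, and 30 between the single-marker sorts. With all regions that had a peak in at least 3 libraries, these counts were 635, 291, 486, 604 and 41. With one library left out, they ranged from 639 to 1019, 350 to 694, 414 to 830, 367 to 592 and 33 to 118. The cause of these shifts was not tested. Same-numbered libraries of different sorts correlated with r from -0.00028 to 0.17 (median 0.089, 9 of 18 over 0.1). Differently numbered ones had r from -0.16 to 0.040 (median -0.039, 0 of 36 over 0.1). Of 12 libraries, 11 correlated best with their own number, so a part of the spread went with the number. The fit reported above had no replicate block, and its p-values leave that part in the spread. With a replicate block the counts were 1264, 867, 978, 679 and 168. All call counts given here under alternatives are of broad regions, without the share over all regions tested.

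The share at a coding start was 66.9% at 3000 bp and 67.9% with the start of any coding transcript, an alternative chosen after seeing the data. The median RNA was 29.97 CPM in WM983B. Of 54 named changes, 22 were called under all 19 alternatives, 19 of the 24 largest rises and falls but 3 of the 30 others. Among 1026 values, 862 kept direction and call, 162 lost the call and 2 changed sign: between NGFR-high and EGFR-high cells with quantile normalization, C2CD3 and PPME1 had 0.0079 (adjusted p = 0.97, -0.26 as reported) and KBTBD8 0.018 (adjusted p = 0.93, -0.30 as reported).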

Other observations

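The shares of gene families that start in broad regions are given as descriptions, beside 26.1% of all coding genes, those without a peak included, and their differences were not tested. Core histone genes reached 67.0% (59 of 88, in 37 regions) and ribosomal protein genes 34.0% (33 of 97, in 32 regions, kinases named RPS6K included). HOX genes stood at 23.1% (9 of 39, in 9 regions) and zinc finger genes at 16.5% (85 of 515, in 82 regions). A difference among the sorts was called in 2 histone, 3 ribosomal, 1 HOX and 9 zinc finger regions, where 8.96% of all broad regions with a coding start were called (404 of 4511). Families sit in clusters, so that their members share regions and are not independent.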
